A study of Mus musculus with 2 samples.

Results

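The replication-dependent histone genes encode the H1, H2A, H2B, H3 and H4 proteins that package newly copied DNA. In the RNA-seq data of differentiating mouse embryonic stem cells (ESCs), they were taken as every gene whose symbol begins with Hist1h, Hist2h, Hist3h or Hist4h. This gave 67 of the 24354 genes with a deposited value: 6 of type H1, 18 of H2A, 18 of H2B, 12 of H3 and 13 of H4. By cluster, 53 belonged to Hist1 on chromosome 13, 10 to Hist2 on chromosome 3, 3 to Hist3 on chromosome 11 and 1 to Hist4 on chromosome 6. One of the H2B genes, Hist3h2bb-ps, is a pseudogene by its symbol.

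RNA was sequenced from 1 culture of Diff–CONT ESCs and 1 culture of Diff–iKO ESCs, so no difference below has a replicate check and no test of the conditions is possible. By the study's methods, both ESC lines were homozygous for the floxed Ino80 allele. Only the Ino80 iKO line also carried CreER, expressed from the ROSA26 locus, which 4-OHTM activates. The labels call the control line WT. Both formed embryoid bodies (EBs) that were attached at day 4, and both were then kept for 7 days in medium with BMP4 and 0.5 µM 4-OHTM, so the control cells received the agent too. How many ESC clones each line came from is not given in the sources used here. FPKM of the targeted gene, Ino80, was 8.90 for the Diff–CONT label and 10.3 for the Diff–iKO label. The gene-level value was thus not lower in the library labelled Diff–iKO, and whether the floxed exons were absent from its transcripts cannot be read from a value over the whole gene. FPKM is the number of sequenced fragments for each kilobase of transcript after scaling for library size, so it may be compared between genes of different length.

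Most messages of replication-dependent histone genes do not end in a poly(A) tail. Their 3′ end is cut just past a short conserved stem-loop, which the stem-loop binding protein SLBP holds, and the messages accumulate in S phase and are degraded when DNA synthesis stops. The genes lie in clusters, often as divergent H2A and H2B pairs that share 1 promoter region. A minority of the messages also, or instead, end at a poly(A) site further downstream or after splicing. The libraries were made with a stranded mRNA kit, which selects RNA by its poly(A) tail. The FPKM of a histone gene here is therefore a level among tailed or otherwise captured RNA. It is not the level of the whole histone message, and a change in the amount of message cannot be told apart from a change in the share that is tailed.

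The stem-loop was found as a perfect stem of 6 base pairs around 4 bases, with the conserved GG, CT, AG and CC of its stem, in an annotated transcript of 46 of the 67 genes (68.7%), against 156 of 23248 other genes (0.671%). A transcript annotated to end before the stem-loop cannot show it. The 30-base windows below are shown because these genes carry the values that follow. Capitals mark the stem-loop, and sequences are those of GENCODE transcripts on GRCm38.
Hist1h1c, chr13:23739505-23739534, plus strand: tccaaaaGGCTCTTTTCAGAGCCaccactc
Hist1h1d, chr13:23555780-23555809, plus strand: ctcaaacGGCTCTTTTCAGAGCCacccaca
Hist3h2a, chr11:58955165-58955194, plus strand: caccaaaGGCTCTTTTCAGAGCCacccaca
Hist3h2ba, chr11:58949342-58949371, plus strand: acccaaaGGCTCTTTTCAGAGCCaccttcc
Hist1h4h, chr13:23531451-23531480, plus strand: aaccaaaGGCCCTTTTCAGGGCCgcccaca
Hist1h4i, chr13:22040959-22040988, minus strand: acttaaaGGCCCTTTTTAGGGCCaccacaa
The form in Hist1h1c was found in 26 genes of types H1, H2A, H2B and H3. The form in Hist1h4h was found in 7 genes, all of type H4.

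Several of the same transcripts are annotated to run on past the stem-loop to a poly(A) signal. The transcript of Hist1h1c continues for 840 nt, that of Hist3h2a for 1643 nt and that of Hist3h2ba for 169 nt, and each has AATAAA within its last 40 nt. Hist2h2be has no stem-loop of this form in a transcript of 2620 nt and ends after the same signal. The signals are printed in capitals.
Hist1h1c, chr13:23740338-23740367, plus strand: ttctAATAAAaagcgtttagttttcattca
Hist3h2a, chr11:58956797-58956826, plus strand: AATAAAataagagtacgtgtataacataag
Hist3h2ba, chr11:58949504-58949533, plus strand: attAATAAAtttggttcaattttggccaca
Hist2h2be, chr3:96223709-96223738, plus strand: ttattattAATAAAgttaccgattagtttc
Hist1h2bc differs from these. Its annotated transcript has 2 exons, of 423 nt (chr13:23684199-23684621) and 733 nt (chr13:23692176-23692908), and holds no stem-loop. The splice junction follows the stop codon, which is in capitals in the joined sequence: aagTGAtcctgccaagaggagcagacctga.

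The histone genes were low in both libraries. Of the 67 genes, 7 (10.4%) reached FPKM 2 in at least 1 library, against 50.8% of all genes of the table, and 13 (19.4%) were listed at 0 in both, against 23.1% of all genes. The median histone gene stood at FPKM 0.121 in Diff–CONT and 0.372 in Diff–iKO. By comparison, the 34 genes of a list for S phase and DNA replication had median FPKM of 27.8 and 28.7. Summed over the 67 genes, FPKM was 71.2 in Diff–CONT and 161 in Diff–iKO, a 2.26-fold difference, which made up 0.0162% and 0.0342% of the summed FPKM of all genes. Without the 3 genes of highest mean FPKM (Hist1h2bc, Hist1h1c and Hist1h4i), the sums were 42.3 and 58.7, a 1.39-fold difference. The 3 highest genes of each library held 57.1% of the histone sum in Diff–CONT and 63.5% in Diff–iKO.

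**Figure D1:**
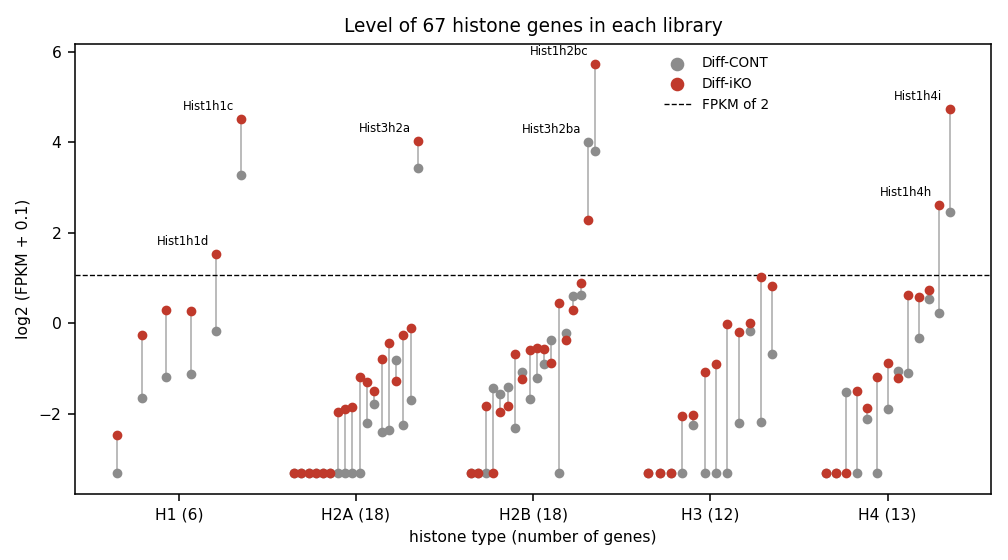
Level of each of the 67 histone genes by type, as log2 of FPKM plus 0.1, with grey points for Diff–CONT, red points for Diff–iKO, a line joining the 2 values of a gene, and a dashed line at FPKM 2. Only 7 genes have a point above the dashed line, and Hist3h2ba is the 1 of them whose red point is the lower.

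These FPKM values rest on few fragments. Low FPKM values of intronless genes rose in steps worth 1 fragment, and the fitted steps put 1 fragment on a 500 nt transcript at FPKM 0.105 in Diff–CONT and 0.139 in Diff–iKO. The steps also showed which transcript lengths lay behind the deposited values. With RefSeq lengths, which stop at the stem-loop for most of these genes, 46 of 60 low histone values (76.7%) came within 0.1 of a whole number of fragments, where 20% would by chance. With GENCODE lengths, which were longer for 36 of 62 genes and shorter for 25, 6 of 48 (12.5%) did. The low values thus mostly fitted the length up to the stem-loop, in which fragments of a longer tailed extension would not be counted. For 6 of the 7 genes that reached FPKM 2, this check did not show the length behind the values. Values of about 1 fragment were listed above 0. For a listed value of 0, an upper limit of 3 expected fragments was assumed, which on 500 nt is FPKM 0.314 in Diff–CONT and 0.418 in Diff–iKO. Fragment numbers are approximate where the RefSeq length is not the one used, and intervals cover counting error only.

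Of the 7 genes that reached FPKM 2, 5 were higher in the library labelled Diff–iKO by FC of at least 2 (Hist1h1c, Hist1h1d, Hist1h2bc, Hist1h4h and Hist1h4i), against 6.73% of all genes that reached FPKM 2. Another 1 was lower (Hist3h2ba), against 8.39%, and Hist3h2a did not pass. Hist1h1d and Hist1h4h reached FPKM 2 in Diff–iKO only, so their passing the filter already required a difference. With FPKM of at least 2 required in both libraries, 3 of 5 genes were higher and 1 was lower, against 4.37% and 5.1% of 11161 genes. With FC of at least 4, 2 of 7 were higher (Hist1h4h and Hist1h4i), against 2.25%, and 0 were lower, against 1.91%. With no filter on FPKM, 33 of 54 genes above 0 were higher, against 14.9%, and 3 were lower, against 14.7%. All 5 that were higher belong to the Hist1 cluster, and the gene that was lower belongs to Hist3.

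Hist1h2bc encodes an H2B and had the highest level of the 67 genes in Diff–iKO. It stood at FPKM 13.96 in Diff–CONT and 52.8 in Diff–iKO, and the log2 ratio was 1.92 with a 95% interval from 1.59 to 2.26. At least 101 and 289 fragments lay behind these values, counted on the length of its first exon alone. The gene starts 250 nt from the divergent Hist1h2ac, an H2A gene whose annotated transcript holds the stem-loop and runs on for 2010 nt past it. Hist1h2ac stood at FPKM 0.111 in Diff–CONT and 0.733 in Diff–iKO, about 1 and 5 fragments. The neighbours were thus far apart in level in both libraries, and both had the higher value in Diff–iKO.

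Among the 6 H1 genes, which encode linker histones that bind the DNA between nucleosomes, Hist1h1c was the highest. Its FPKM was 9.59 in Diff–CONT and 22.7 in Diff–iKO (log2 ratio 1.25, interval 0.96 to 1.54, about 155 and 276 fragments). Hist1h1d stood at FPKM 0.791 and 2.79, and its log2 ratio was 1.82 (0.89 to 2.82, about 14 and 37 fragments). Hist1h1a stood at FPKM 0.358 and 1.11, with a log2 ratio of 1.64 (0.17 to 3.30, about 6 and 14 fragments). All 6 H1 genes had the higher value in Diff–iKO, and their summed FPKM was 11.3 in Diff–CONT and 28.6 in Diff–iKO. The sixth of them, the testis-specific Hist1h1t, rested on about 1 fragment in Diff–iKO and was at 0 in Diff–CONT.

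The H4 genes encode the same core histone, and 2 of them passed the cut-off. Hist1h4i stood at FPKM 5.36 in Diff–CONT and 26.5 in Diff–iKO, a log2 ratio of 2.30 (1.76 to 2.88, about 36 and 133 fragments). Hist1h4h stood at FPKM 1.07 and 6.01, a log2 ratio of 2.49 (1.35 to 3.81, about 8 and 34 fragments). Its annotated transcript ends 46 nt past the stem-loop, with no AATAAA in its last 40 nt. It was the only one of the 23 genes whose transcripts end within 100 nt of the stem-loop to reach FPKM 2. Hist1h4k, the third H4 gene by level, stood at FPKM 1.34 and 1.57, with a log2 ratio of 0.23 (−1.34 to 1.78). Summed over the 13 H4 genes, FPKM was 9.77 in Diff–CONT and 38.4 in Diff–iKO, and these 2 genes decided that. The 11 other H4 genes summed to 3.33 and 5.93, with a pooled ratio of 1.72 (0.946 to 3.15), and 2 of them had the lower value in Diff–iKO.

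In the Hist3 cluster the genes had different directions. Hist3h2ba encodes an H2B and was the highest histone gene in Diff–CONT, at FPKM 15.9. It was 6th in Diff–iKO, at FPKM 4.79, and its log2 ratio was −1.73 (−2.36 to −1.15, about 134 and 30 fragments). Hist3h2a, the H2A gene of the same cluster, stood at FPKM 10.8 in Diff–CONT and 16.2 in Diff–iKO, with a log2 ratio of 0.59 (0.20 to 0.98, about 105 and 119 fragments), which stays under the cut-off. The pair thus had opposite directions with intervals that did not overlap. They are not a divergent pair: the gene next to Hist3h2a, at a distance of 172 nt, is Hist3h2bb-ps, which stood at FPKM 0.239 and 0.158, about 2 fragments and 1. Hist1h1c and Hist3h2ba lay nearest the cut-off on its inner side, and Hist3h2a was the 1 gene outside it.

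**Figure D2:**
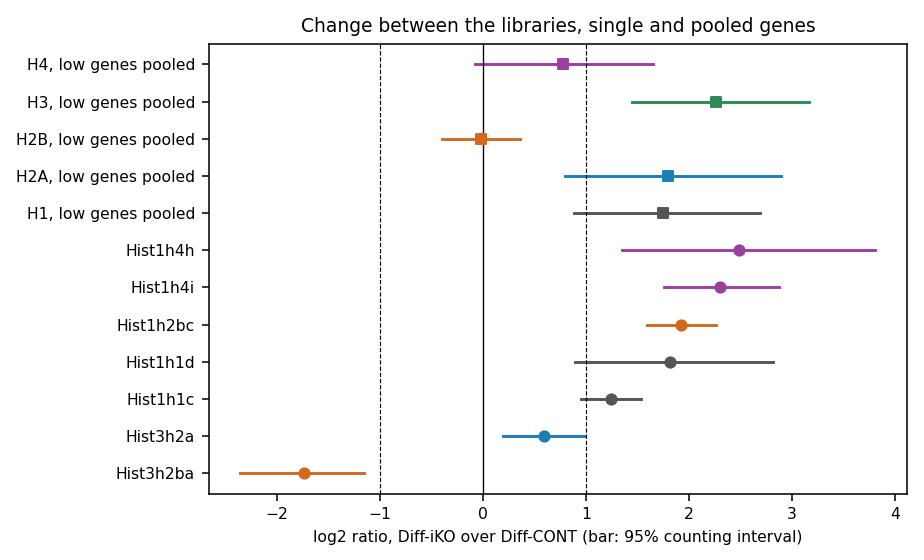
Log2 ratio of Diff–iKO to Diff–CONT for the 7 genes that reached FPKM 2 (circles) and for fragments pooled over the genes of each type that stayed under it (squares), with bars for the 95% counting interval, a solid line at 0 and dashed lines at FC 2. Hist3h2ba, at −1.73, is the 1 circle left of 0, and the pooled H2B square sits at −0.02.

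No H3 gene reached FPKM 2, yet all 9 H3 genes above 0 had the higher value in Diff–iKO. Hist1h3d stood at FPKM 0.524 in Diff–CONT and 1.67 in Diff–iKO, with a log2 ratio of 1.67 (0.06 to 3.53). Hist1h3b stood at FPKM 0.121 and 1.92, about 1 and 12 fragments, with a log2 ratio of 3.99 (1.23 to 9.41). Hist1h3c stood at FPKM 0.794 and 0.901, and its log2 ratio of 0.18 (−1.67 to 1.98) was well within counting error. Pooled over the 12 H3 genes, about 16 fragments in Diff–CONT and 57 in Diff–iKO gave a 4.80-fold difference after scaling by the fitted factor of each library (2.72 to 8.96). The other 3 H3 genes, Hist2h3b, Hist2h3c1 and Hist2h3c2, were listed at 0.

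H2A genes other than Hist3h2a had few fragments. After it, the highest were Hist1h2ab at FPKM 0.209 in Diff–CONT and 0.831 in Diff–iKO, and Hist1h2ac, given above. Over the 17 low H2A genes, about 12 and 31 fragments gave a 3.48-fold difference (1.74 to 7.44). Of these genes, 10 had the higher value in Diff–iKO, 1 had the lower value, and 6 were listed at 0 in both libraries.

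The H2B genes did not share a direction: 8 of 18 had the higher value in Diff–iKO and 8 the lower. Their summed FPKM was 36.4 in Diff–CONT and 66.0 in Diff–iKO, and Hist1h2bc alone decided that. Without it, the sums were 22.5 and 13.1, a fall that Hist3h2ba decided in turn: the 16 H2B genes under FPKM 2 summed to 6.53 and 8.32. Below Hist1h2bc and Hist3h2ba, Hist1h2bg was the highest, at FPKM 1.44 and 1.74, with a log2 ratio of 0.28 (−1.04 to 1.59). Over low H2B genes with fragment numbers, the ratio was 0.989 (0.758 to 1.29), and 105 of the 139 Diff–CONT fragments came from Hist2h2be, which the next paragraph gives. Over the 11 H2B genes of Hist1 with fragment numbers, the ratio was 1.73 (1.03 to 2.95) on about 28 and 36 fragments. That rested on Hist1h2bn, which had 0 and about 8 fragments. Without it, a setting chosen after the values were seen, the ratio was 1.35 (0.769 to 2.36).

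In Hist2, Hist2h2be was the 1 gene with many fragments. It stood at FPKM 1.42 in Diff–CONT and 1.12 in Diff–iKO, and its log2 ratio was −0.35 (−0.83 to 0.12, about 105 and 61 fragments). The other genes of Hist2, and Hist4h4, were near the limit of detection. Hist2h2bb stood at FPKM 0.434 and 0.575, about 4 fragments each. Hist2h4 stood at FPKM 0.168 and 0.441, and Hist2h2ab and Hist2h2ac had about 1 fragment each in Diff–iKO and none in Diff–CONT. Hist2h2aa1, Hist2h2aa2, Hist2h3b, Hist2h3c1 and Hist2h3c2 were listed at 0 in both. Hist4h4 had about 1 fragment in each library. No difference in a Hist2 gene or in Hist4h4 was larger than counting error.

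The clusters were also compared as wholes. In Hist1, 37 of the 45 genes above 0 had the higher value in Diff–iKO, and the summed FPKM was 42.1 in Diff–CONT and 137 in Diff–iKO. Fragments pooled over its 48 genes that stayed under FPKM 2, without the 2 of them that lack a fragment number, gave a 2.74-fold difference (2.12 to 3.56). The same ratio was 0.845 in Hist2 (0.616 to 1.15) and 0.839 in Hist3 (0.680 to 1.03), each over all genes of the cluster. The Hist1 interval lay above both, but these 2 ratios each depended on 1 gene. Hist2h2be gave 105 of the 110 Hist2 fragments in Diff–CONT, and Hist3h2ba and Hist3h2a, which differ in direction, gave nearly all of those in Hist3. Without Hist2h2be, the Hist2 ratio was 2.16 on about 5 and 8 fragments (0.622 to 8.38), and without Hist3h2ba the Hist3 ratio was 1.51 (1.15 to 1.98). These genes were left out after their values were seen. Hist1 falls into 2 gene groups on chromosome 13. The 22 genes at chr13:21715763-22043676 had summed FPKM of 8.87 and 34.2, and the 31 genes at chr13:23531050-23934851 had 33.2 and 103. Pooled over low genes, the ratio was 2.55 (1.57 to 4.22) in the former and 2.82 (2.08 to 3.85) in the latter, with intervals that overlapped.

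**Figure D3:**
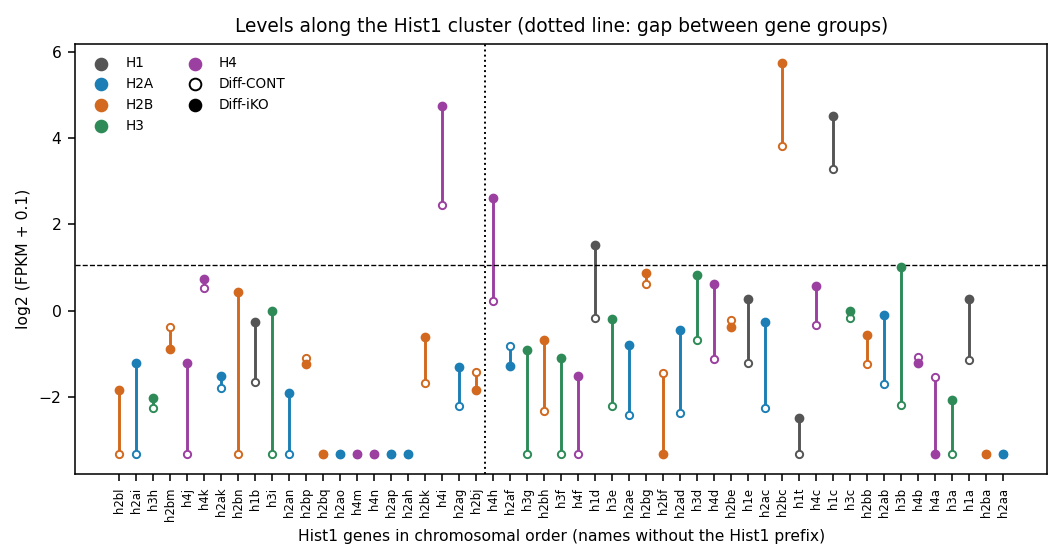
Level of the 53 Hist1 genes in chromosomal order, as log2 of FPKM plus 0.1, with open circles for Diff–CONT, filled circles for Diff–iKO, colour for histone type, a dashed line at FPKM 2 and a dotted line at the gap between the 2 gene groups. The filled circle is the upper one in 37 genes on both sides of the gap, and the genes above FPKM 2 are scattered among low neighbours.

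Among all 54 histone genes above 0 in at least 1 library, 43 (79.6%) had the higher value in Diff–iKO, against 50.3% of all genes above 0. Among the 47 that stayed under FPKM 2 the count was 37 (78.7%), against 51.6% of all genes at such levels, which were not matched for length. Some were higher on equal or fewer fragments, such as Hist4h4 (about 1 and 1) and Hist1h2bg (about 12 and 11). On the same length, 1 fragment is worth more FPKM in Diff–iKO. The counting interval of the gene itself lay above 0 in 14 of the 54 genes and below 0 in 1. At least a 2-fold higher value was found in 28 of these 47 genes (59.6%, against 30.9%) and at least a 2-fold lower value in 2 (4.26%, against 27.1%). Histone genes are not independent of each other, since they lie in shared clusters and near-identical copies may share reads. Over the 13 genes with mean FPKM of at least 1, the median log2 ratio with 0.1 added to each FPKM was 1.24, against −0.01 over 13145 such genes of the table. Of these 13, Hist1h1d, Hist1h3b, Hist1h3d and Hist1h4c had FPKM under 1 in Diff–CONT and entered through Diff–iKO, and over the other 9 the median was 0.58. With no filter, the median over the 67 genes was 0.85. Across the 39 genes above 0 in both libraries, log2 FPKM of the libraries correlated with Pearson's r = 0.818, given as a description of genes that share clusters and sequence.

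Shared sequence was also described for the genes listed at 0. In the 13 genes at 0 in both libraries, a median of 7.35% of the 75-nt stretches of the transcript occurred in no other annotated transcript, and 10 of the 13 had under 20%. In the 54 genes above 0 the median was 64.2%, and 5 of them had under 20%. One of these, Hist2h2bb, had 0% and still stood above 0 in both libraries. In the 7 genes that reached FPKM 2 it ranged from 57.6% to 98.5%. The part of reads shared between copies in the values of 0 was not tested. The germ line genes Hist1h2aa and Hist1h2ba, which form a divergent pair used in testis, were among the 13.

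The genes were also set side by side by their annotated 3′ end, with no test. Transcripts that run at least 100 nt past the stem-loop belonged to 23 genes, of which 5 reached FPKM 2. Transcripts that end within 100 nt of it belonged to 23 genes, of which 1 did. The 21 genes with no stem-loop in their transcript had 1, Hist1h2bc. For many of these 21 the GENCODE transcript is shorter than the RefSeq one, as for Hist1h2bn (381 against 478 nt) and Hist1h4k (312 against 409 nt). A stem-loop or AATAAA past such an end would not be found, so the classes depend on the annotation. The 11 genes with AATAAA in the last 40 nt, which include both high Hist3 genes, Hist1h1c and Hist2h2be, had summed FPKM of 38.4 in Diff–CONT and 46.3 in Diff–iKO. The 56 genes without it had 32.9 and 114, and without Hist1h2bc 18.9 and 61.6. Without Hist3h2ba, the sums of the genes with AATAAA were 22.4 and 41.6, a setting chosen after seeing the data. Pooled fragments of the genes with the signal gave a ratio of 1.33 (1.17 to 1.504), or 1.70 (1.48 to 1.95) without Hist3h2ba, and those of the genes lacking it, without Hist1h2bc, 3.44 (2.85 to 4.18). The annotated ends are those of GENCODE, and which end the RNA in these libraries had was not measured.

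**Figure D4:**
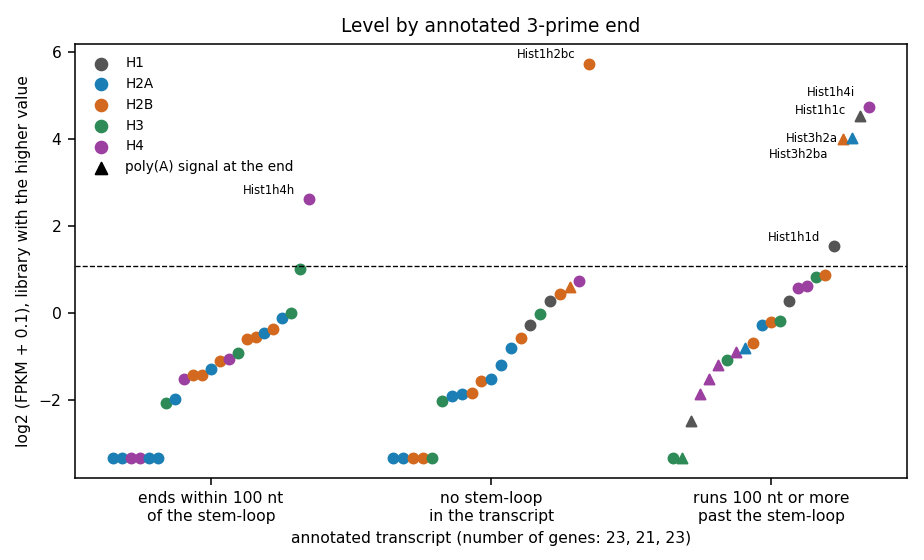
Level of each histone gene in the library with its higher value, as log2 of FPKM plus 0.1, by the 3′ end of its annotated transcript, with colour for histone type, triangles for transcripts with AATAAA in the last 40 nt and a dashed line at FPKM 2. Of the 7 labelled genes above the line, 5 are in the right-hand class of 23 genes.

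The promoters were searched for letters of sequence features the family is known for, at any position in the window. Windows from 250 bases before to 50 after the RefSeq start were found for 60 of the 67 genes. On the strand of the gene, TATAAA was present in 50% of them, against 8.32% of 32851 promoters of the same length. CCAAT, the site of NF-Y, was searched on both strands and was present in 85%, against 37.4%, and in all H1, H2A, H2B and H3 windows but only 3 of 12 H4 windows. The octamer ATGCAAAT, which Oct proteins bind, was present on either strand in 21.7%, against 1.74%: in 7 of 17 H2A windows, 6 of 15 H2B windows and none of the other types. The windows of some of the genes named above are printed below with these motifs in capitals, in RefSeq coordinates on GRCm38.p6. The first reaches the annotated start of Hist1h2bc on the opposite strand, and Hist1h2bc has no window of its own here.
Hist1h2ac, chr13:23683910-23684209, minus strand: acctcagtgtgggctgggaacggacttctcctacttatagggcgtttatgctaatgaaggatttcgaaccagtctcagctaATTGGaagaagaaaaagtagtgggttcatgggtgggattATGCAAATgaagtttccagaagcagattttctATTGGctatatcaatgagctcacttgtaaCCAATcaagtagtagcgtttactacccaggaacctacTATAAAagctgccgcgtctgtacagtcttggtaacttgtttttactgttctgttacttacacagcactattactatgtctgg
Hist3h2ba, chr11:58948661-58948960, plus strand: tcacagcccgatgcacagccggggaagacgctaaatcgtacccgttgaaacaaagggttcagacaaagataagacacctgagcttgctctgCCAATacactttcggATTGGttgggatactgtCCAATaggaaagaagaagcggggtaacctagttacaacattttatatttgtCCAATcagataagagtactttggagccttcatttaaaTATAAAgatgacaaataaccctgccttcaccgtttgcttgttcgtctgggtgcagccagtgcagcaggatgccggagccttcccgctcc
Hist3h2a, chr11:58954435-58954734, plus strand: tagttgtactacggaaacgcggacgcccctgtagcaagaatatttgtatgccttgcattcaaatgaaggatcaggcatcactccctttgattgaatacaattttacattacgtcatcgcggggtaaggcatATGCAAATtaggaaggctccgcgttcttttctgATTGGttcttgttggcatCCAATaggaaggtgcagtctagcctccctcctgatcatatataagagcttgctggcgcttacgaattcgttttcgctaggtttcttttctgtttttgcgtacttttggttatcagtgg
Hist1h4i, chr13:22041313-22041612, minus strand: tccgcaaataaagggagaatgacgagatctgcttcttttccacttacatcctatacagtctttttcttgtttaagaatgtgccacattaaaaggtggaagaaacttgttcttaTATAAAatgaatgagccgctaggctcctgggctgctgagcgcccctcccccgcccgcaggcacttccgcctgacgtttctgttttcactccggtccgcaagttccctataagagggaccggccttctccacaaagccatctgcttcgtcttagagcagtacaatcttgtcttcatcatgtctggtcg
The octamer was present in the windows of Hist1h2ac and Hist3h2a and not in that of Hist3h2ba. A match describes these letters only.

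Genes that work with the histones were read from lists, to be set beside the 6.73% of all genes past the cut-off upward and 8.39% downward. Of 34 genes for S phase and DNA replication, 0 passed the cut-off upward and 1 downward, with a median log2 ratio of −0.08. That 1 was Gins2, a subunit of the replicative helicase, at FPKM 29.2 in Diff–CONT and 14.2 in Diff–iKO. The highest of the list were Pcna, the sliding clamp (FPKM 108 and 94.2), and the helicase subunits Mcm7 (98.4 and 110) and Mcm6 (81.7 and 70.2). Of 8 proliferation genes, 7 had the lower value in Diff–iKO and none passed the cut-off, with a median of −0.22. Top2a, the highest, stood at FPKM 108 and 90.7, Birc5 at 58.3 and 56.7, and Ccnb1 at 54.9 and 55.1.

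Of 19 measured genes for histone transcription and 3′ end processing, 0 passed upward and 1 downward, against 6.73% and 8.39% of all genes, with a median of 0.08. Lsm11, a protein of the U7 particle that cleaves histone messages, stood at FPKM 3.84 in Diff–CONT and 1.74 in Diff–iKO. Sympk, a scaffold of the cleavage complex, stood at FPKM 70.1 and 56.4. Srrt, which couples the cap to 3′ end formation, stood at FPKM 60.9 and 94.9, and Ncbp1, a cap-binding protein, at 36.3 and 45.5. Slbp itself stood at FPKM 30.8 and 26.4, and Npat, the coactivator of histone genes, at 11.0 and 10.9. Both are named here outside the rule, as the proteins most specific to these messages. Among 16 histone chaperones none passed, against the same shares. Npm1 stood at FPKM 1199 and 1336, Nap1l1 at 353 and 299, and Rbbp7 at 234 and 186.

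The replication-independent histone variants mostly have tailed messages and were expressed far above most of the 67 genes. Of 11, 1 was higher past the cut-off and 3 were lower, against the same 6.73% and 8.39% of all genes. H2afj, an H2A variant, stood at FPKM 8.69 in Diff–CONT and 20.8 in Diff–iKO. H1f0, a linker histone of differentiated cells, stood at FPKM 117 and 25.1, opposite in direction to the 6 H1 genes of Hist1. H2afy2, a macroH2A, stood at FPKM 46.1 and 8.22, and H3f3a, an H3.3 gene, at 143 and 71.4. H3f3a lay just past the cut-off and does not pass when the libraries are scaled to the same upper quartile. The other H3.3 gene, H3f3b, was the highest of the list at FPKM 335 and 271, followed by H2afz, which encodes H2A.Z, at 168 and 188.

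**Figure D5:**
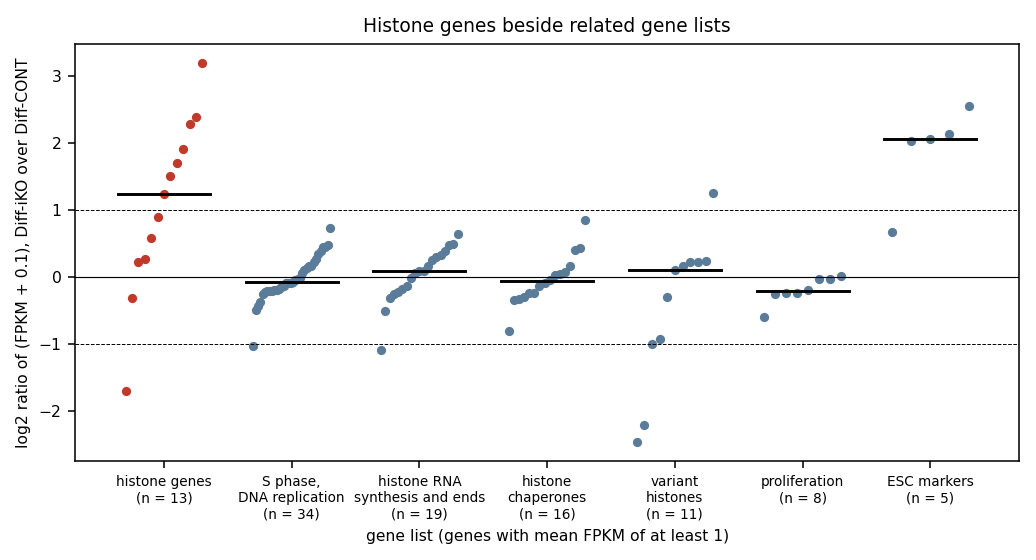
Log2 ratio of Diff–iKO to Diff–CONT, with 0.1 added to each FPKM, for genes with mean FPKM of at least 1 in each list, with bars for the median and dashed lines at FC 2. The 13 histone genes have a median of 1.24, the S phase, processing, chaperone, variant and proliferation lists lie between −0.22 and 0.10, and the 5 ESC markers have a median of 2.05.

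Other RNAs that carry no poly(A) tail were also read from the table. Of 14 listed, 7 were present. Rmrp stood at FPKM 5.57 in Diff–CONT and 3.17 in Diff–iKO, Rpph1 at 3.05 and 1.23, past the cut-off downward, and Terc at 0.315 and 0.623. The other 4, Rnu7, Rnu11, Rnu12 and Rnu73b, are short RNAs and were listed at 0 in both libraries. Of 127 genes named as snoRNAs, scaRNAs and other small RNAs, 102 were at 0 in both, 12 were above 0 in both, 6 in Diff–CONT only and 7 in Diff–iKO only. The FPKM of RNAs shorter than a fragment reached 10913 and was not read as a level. The amount of untailed RNA in the libraries, and its part in the histone values, was not tested.

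Cell type markers also differed between the libraries. Their counts past the cut-off are to be set beside 6.73% upward and 8.39% downward of all genes that reached FPKM 2. All 5 ESC markers had the higher value in Diff–iKO, 4 of them past the cut-off, and their summed FPKM was 133 in Diff–CONT and 453 in Diff–iKO. All 4 visceral endoderm markers were lower past the cut-off (summed FPKM 194 and 3.43). The blood markers Hbb-bh1 and Hba-x were listed at 0 in Diff–iKO (summed FPKM of the 4 blood markers 144 and 0.425). Summed FPKM was 28.3 and 7.57 over 5 cardiomyocyte markers, with 2 past the cut-off downward. It was 2.95 and 14.1 over 4 trophoblast markers, with 3 past it upward. Of these, Ascl2 lay just past it (1.00 and 2.03), and the fourth, Gcm1, had the lower value in Diff–iKO (0.397 and 0.241). Of 5 mesenchyme markers 2 were lower past the cut-off (summed FPKM 1316 and 1408), and the sum follows Col1a1 (880 and 1199), since the other 4 had the lower value in Diff–iKO. Of 4 endothelial markers 3 were lower past the cut-off and 1, Pecam1 (16.2 and 53.9), was higher and set the direction of the sum (44.1 and 64.6). Fewer cells of a type and less RNA per cell cannot be told apart in bulk RNA, and the part of these differences in the histone values was not tested.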

How the data were processed

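Poly(A) RNA from 1 µg of total RNA of each of 2 cultures was sequenced as paired-end reads, and the values the authors deposited are FPKM of 24354 genes. The submitters' processing notes name STAR 2.7.9a, Cufflinks 2.2.1 and Cuffnorm with mm10. The study's methods give default options for STAR, in a sentence on public datasets. The gene annotation, strand setting and read number are not given in the sources used here, so reads of near-identical copies and of antisense overlaps are uncertain. The 2 value columns were assigned by name, and 0 other value columns were present.

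The members and lists were chosen with earlier results of these data known. Genes passed the cut-off with FPKM ≥ 2 in either library and FC ≥ 2, computed on plain FPKM. Medians used a pseudocount of 0.1 and mean FPKM ≥ 1. Fragments were recovered as FPKM × (length − deduction) × scale. The deduction and scale were fitted on 2329 intronless genes outside the family (178 nt and 29.65 M fragments in Diff–CONT, 174 nt and 22 M in Diff–iKO). Within 0.1, 96.6% of 118 low values and 95.5% of 134 were then whole, the share that the fit itself maximised. The fit was run on data simulated from the same model with 1 length for each gene. That run cannot show whether the model holds for the histone genes. Where lengths gave no whole numbers in both libraries (tolerance 0.2), the ratio of the libraries was used for genes with few fragments. Pooled ratios leave out Hist1h2bc, Hist1h2be and Hist1h2bp, which have no single RefSeq length. Intervals are exact Clopper-Pearson 95% intervals. Stem-loops, poly(A) signals, 75-nt stretches and coordinates came from GENCODE vM21, promoters and lengths from RefSeq GRCm38.p6.

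Named members were the 3 highest of each type, those past the cut-off, all of Hist2 to Hist4, germ line members and those nearest the cut-off. In the other lists they were the 3 highest by mean FPKM and those past the cut-off. For markers, the summed level and the genes at 0 are printed. Col1a1, Pecam1, Ascl2 and Gcm1 are printed too, chosen after their values were seen. Other fold changes, filters, pseudocounts and 3 scalings were tried. The tools were Python 3.11.15 with scipy 1.17.1, numpy 2.4.6, matplotlib 3.10.9 and pandas 2.3.3.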

Additional observations from a re-analysis of the deposited data

How the results depend on the processing

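No paired analysis was possible because each group had 1 library. With FC of at least 4, 2 of 7 histone genes were higher and 0 lower (2.25% and 1.91% of all genes tested). With no filter on FPKM, 33 of 54 were higher and 3 lower (14.9% and 14.7% of 18731 genes). With FPKM of at least 2 in both libraries, 3 of 5 were higher (4.37% of 11161). The other settings left 4 to 6 higher and 1 lower. The median log2 ratio of 1.24 was 0.81 with a pseudocount of 1 and 0.85 with no filter, where all genes had medians of −0.01 and 0. It was 0.58 without the 4 genes under FPKM 1 in Diff–CONT, a setting added after seeing the data. The H2B median of −0.03 was 0.10 with mean FPKM of at least 5, where 2 genes were left. The log2 ratio of the summed FPKM, 1.17, was 0.47 without the 3 genes of highest mean FPKM (Hist1h2bc, Hist1h1c and Hist1h4i). It was 0.91 without Hist1h2bc and 0.86 from pooled fragments, which leave out Hist1h2bc, 2 settings chosen after seeing the data. The scalings changed no direction of these results; scaling to the same sum shifted all log2 ratios by −0.09. A pseudocount of 1 shrank the ratios of low genes, such as that of Hist1h3b from 3.99 to 1.38. Most of the histone genes rest on few fragments, which limits what can be read from each.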
